A study of Mus musculus with 12 samples.

Results

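MYC and the nucleolar genes of ribosome biogenesis were examined in SVR xenograft tumors as a set of 34 genes, chosen by name from the table of gene counts. Each of the 34 names matched 1 of the 54232 genes of the table, and all 34 were among the 12897 genes with enough counts to be tested. By role, the set held 7 genes of the MYC network, 8 genes of small nucleolar ribonucleoproteins (snoRNPs) and nucleolar architecture, 5 genes of RNA polymerase I, 4 genes of the small subunit processome and 10 genes of large subunit assembly. SVR is a mouse angiosarcoma line, made of endothelial cells that carry an activated H-Ras. It is 1 cell line, labelled C57BL/6, and it was grown under the skin of athymic nude mice, which lack mature T cells and were 8 to 12 weeks old. Once tumors had formed, mice were dosed by mouth every day with vehicle (control), with the MEK inhibitor trametinib at 1 mg/kg, with the VEGFR inhibitor cediranib at 3 mg/kg, or with both drugs at these doses (combination). Each treatment had 3 tumors, labelled as separate samples, and how long each was treated could not be read from the labels. The paper describes an experiment with harvest at a fixed time and another with harvest by tumor size or ulceration. It does not state which gave these tumors. Time on treatment and tumor size may therefore differ between treatments, and their part in the differences below cannot be told apart.

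MYC is a transcription factor that binds DNA as a partner of MAX, most tightly at the E-box CACGTG, while MXD1, MXD4 and MXI1 bind MAX in its place and repress. Its best known targets include the genes that build ribosomes. In the nucleolus, RNA polymerase I copies the ribosomal DNA into a long precursor, snoRNPs modify that precursor, the small subunit processome folds and cuts it, and further factors assemble the large subunit. MEK activates the kinase ERK, which in many cells raises transcription of Myc and stabilizes the MYC protein. The RNA was extracted from whole tumors, so fewer cells of a type and less RNA per cell cannot be told apart for any gene below.

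Libraries held 9478865 to 11666094 counts. Levels are given in CPM, the counts of a gene scaled to a common library size with TMM factors, with 3 counts in a library equal to 0.251 to 0.349 CPM. Endothelial markers, which the labelled cell type should express, summed to 212 to 448 CPM in control tumors, 53.1 to 114 CPM with trametinib, 127 to 337 CPM with cediranib and 36.0 to 88.3 CPM with the combination. Of the 10 tested, 5 were lower with trametinib against control and 0 were higher. Fibroblast markers summed to 2034 to 21010 CPM in control tumors and 8103 to 36880 CPM with trametinib, with 1 of 8 higher. The 7 T cell markers summed to 2.69 to 8.08 CPM in the 12 tumors, with Cd3g at 0 in each. Of 5 erythroid genes tested, 4 hemoglobin genes were lower in combination against control, where their list summed to 15.1 to 16.3 CPM and 74.0 to 1798 CPM. Of 10 macrophage markers, Cd68, Mrc1 and Csf1r were lower in combination against control, with sums of 179 to 318 CPM and 391 to 687 CPM. Epidermal markers summed to 98.5 to 181 CPM in control and trametinib treated tumors, 124 to 356 CPM with cediranib and 406 to 597 CPM with the combination. Skeletal muscle markers reached 17780 CPM in control tumor 2 and 25140 CPM in trametinib tumor 2, against 7.68 to 2197 CPM in the other 10 tumors. The part of these tissue markers in the results was not tested other than by leaving out each tumor and by adding the epidermal markers to the model.

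Because MYC binds the E-box, the 300 bases around the start of transcription, 250 before it and 50 after, were read for the letters CACGTG, which are the same on both strands. RefSeq windows (build GRCm38.p6) were matched for 29 of the 34 genes and not for Myc, Npm1, Fbl, Bop1 and Rrs1. CACGTG stood in the windows of 7 of the 29 genes (24.1%), namely Max, Mxd4, Nop2, Pes1, Rrn3, Utp20 and Wdr43, compared with 8.09% of 27025 genes with windows and 11.7% of the 8819 of these that were tested. Of the 13 members that were lower with trametinib in the tests below, 11 had a window and 3 of these held CACGTG (27.3%). Among the other members, 18 had a window and 4 of these held it (22.2%). Of the lower members with CACGTG, Wdr43 passed in both trametinib comparisons. Rrn3 and Pes1 missed in trametinib against control by edgeR, and their calls in combination against cediranib were lost under several alternatives. The related letters CACGCG, searched on both strands, stood in the windows of 27.6% of members and of 20.3% of tested genes. Windows are shown for the 3 lower members with an E-box, Rrn3, Wdr43 and Pes1, and for Polr1b and Nop56, which were among the most clearly lowered and held none. They are read 5′ to 3′ on the strand of the gene, with CACGTG in capitals and the rest in lower case.
Rrn3, chr16:13780449-13780748, plus strand: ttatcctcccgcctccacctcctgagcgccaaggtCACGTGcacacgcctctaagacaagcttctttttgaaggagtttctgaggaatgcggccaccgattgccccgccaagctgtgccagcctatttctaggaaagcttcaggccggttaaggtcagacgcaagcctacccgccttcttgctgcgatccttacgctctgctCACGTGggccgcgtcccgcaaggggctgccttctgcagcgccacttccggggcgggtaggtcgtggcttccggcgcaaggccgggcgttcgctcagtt
Wdr43, chr17:71615965-71616264, plus strand: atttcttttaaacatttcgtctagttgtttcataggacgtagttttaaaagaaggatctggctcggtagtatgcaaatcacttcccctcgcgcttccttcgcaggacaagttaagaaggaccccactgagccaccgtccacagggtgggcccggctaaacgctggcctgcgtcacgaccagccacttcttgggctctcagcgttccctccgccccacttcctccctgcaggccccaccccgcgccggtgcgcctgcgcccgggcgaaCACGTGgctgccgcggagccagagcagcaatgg
Pes1, chr11:3963725-3964024, plus strand: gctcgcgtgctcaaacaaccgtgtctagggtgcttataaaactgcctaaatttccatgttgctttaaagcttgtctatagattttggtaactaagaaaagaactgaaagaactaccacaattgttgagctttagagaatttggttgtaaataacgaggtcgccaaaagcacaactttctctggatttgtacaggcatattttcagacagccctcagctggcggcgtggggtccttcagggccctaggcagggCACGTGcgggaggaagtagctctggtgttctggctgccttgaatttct
Polr1b, chr2:129100746-129101045, plus strand: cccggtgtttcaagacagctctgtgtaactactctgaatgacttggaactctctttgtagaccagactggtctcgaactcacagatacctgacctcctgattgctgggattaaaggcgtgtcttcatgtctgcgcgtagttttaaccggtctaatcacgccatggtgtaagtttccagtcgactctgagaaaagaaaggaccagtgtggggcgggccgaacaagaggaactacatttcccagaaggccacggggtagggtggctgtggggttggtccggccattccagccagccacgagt
Nop56, chr2:130274162-130274461, plus strand: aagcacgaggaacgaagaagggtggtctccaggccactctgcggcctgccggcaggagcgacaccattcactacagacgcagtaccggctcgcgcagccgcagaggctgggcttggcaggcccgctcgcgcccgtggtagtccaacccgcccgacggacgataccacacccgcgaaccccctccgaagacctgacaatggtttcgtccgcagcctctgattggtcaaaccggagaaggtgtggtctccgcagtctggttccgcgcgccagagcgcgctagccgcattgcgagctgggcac
In Rrn3 the E-boxes began 215 and 48 bases before the start of transcription. Those of Wdr43 and Pes1 began 18 and 3 bases after it. A match describes the sequence only, and binding of MYC was not measured.

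To learn how the MEK inhibitor acted on these genes, trametinib treated tumors were compared with control tumors. Trametinib lowered Myc to 48.0% of its control level, together with 8 genes of the nucleolus, and no member rose (2.64% of all genes did). The 9 members that fell at an FDR of at most 0.05 were Myc, Nop56, Dkc1, Nolc1, Polr1b, Heatr1, Wdr43, Rrs1 and Ddx21, or 26.5% of the set, compared with 3.47% of all genes tested (edgeR, quasi-likelihood test, Benjamini-Hochberg over 12897 genes). In 20 of the 34 members every trametinib treated tumor lay below every control tumor, against 12.9% of all genes, and in 1 member, Mxd4, every one lay above, against 12.9% of all genes. The median log2 fold change was -0.39 over the 34 members and -0.40 over the 27 nucleolar members, of which 25 had a negative value, while the median of all genes was 0.01. No member met the study's own threshold, an FDR of at most 0.05 together with a log2 change of at least 1.5 in either direction, which 2.40% of all genes did. Mycn and Mycl had fold changes of that size but did not pass the FDR.

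**Figure D1:**
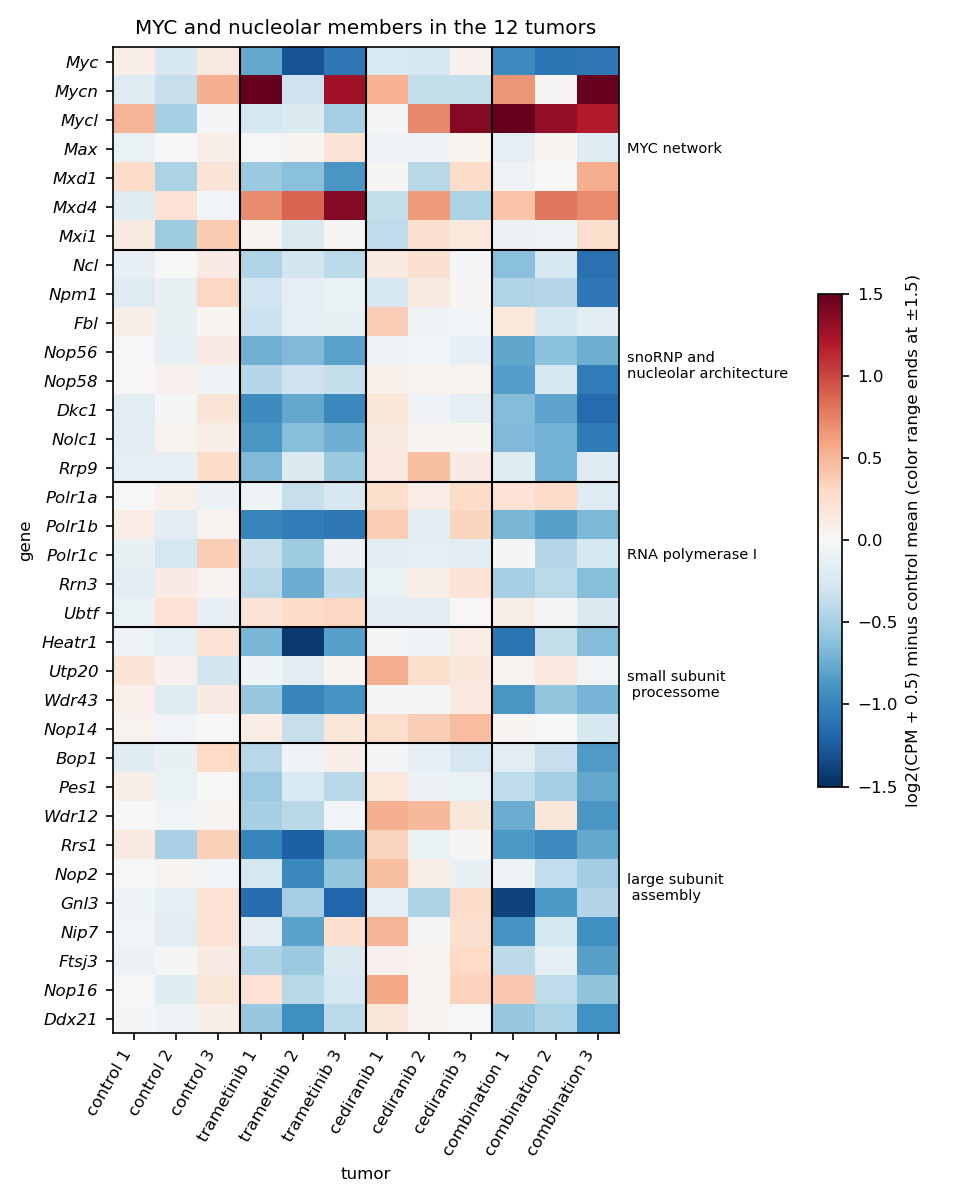
Level of each of the 34 members (rows, by role) in each of the 12 tumors (columns, by treatment), as log2(CPM + 0.5) minus the mean of the 3 control tumors. Blue cells, below control, fill the trametinib and combination columns for Myc, Nop56, Dkc1, Nolc1, Polr1b, Wdr43 and Rrs1, while the cediranib columns stay near white for these genes, and the color range ends at 1.5 in each direction.

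Within the MYC network, Myc was the member that changed. Its level was 40.2, 31.8 and 41.4 CPM in the 3 control tumors, 21.8, 15.01 and 17.6 CPM with trametinib, 32.1, 31.4 and 39.3 CPM with cediranib, and 19.2, 17.2 and 17.6 CPM with the combination. All 6 tumors that received trametinib lay below all 6 that did not. The log2 fold change of Myc (chromosome 15, 61985391 to 61990350, plus strand, GRCm38) was -1.06 ± 0.17 (SE, n = 3 per group, FDR 0.00348 by edgeR) for trametinib against control. Per kilobase of transcript, Myc stood at 13.9 CPM in control tumors, compared with 0.0888 CPM for Mycn and 0.0589 CPM for Mycl, so that Myc was the main MYC gene expressed. Mycn (chromosome 12), known from neuroblastoma, had 1 to 23 counts in each tumor. Its level was 0.170, 0.101 and 0.606 CPM in control tumors, 2.09, 0.116 and 1.34 CPM with trametinib, 0.599, 0.0946 and 0.0957 CPM with cediranib, and 0.707, 0.272 and 1.86 CPM with the combination. These groups overlapped, and neither trametinib comparison passed (log2 fold changes 2.02 and 1.82, FDR 0.289 and 0.330 by edgeR). Mycl (chromosome 4), the paralog named for lung cancer, had 0 to 15 counts. Its level was 0.511, 0 and 0.202 CPM in control tumors, 0.0908, 0.116 and 0 CPM with trametinib, 0.200, 0.662 and 1.34 CPM with cediranib, and 1.51, 1.27 and 1.11 CPM with the combination. The combination treated tumors had 12 to 15 counts each and the trametinib treated tumors 0 to 1, a difference that missed the threshold (combination against trametinib, FDR 0.0756 by edgeR) and passed it by DESeq2.

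Max, the shared partner, was level across treatments at 204 to 269 CPM, with a log2 fold change of 0.09 and a 95% interval of -0.14 to 0.32 for trametinib against control. Among the repressors, Mxd4 had 1.87 to 2.64 CPM in control tumors and 3.90 to 6.45 CPM with trametinib and did not pass the test (log2 fold change 1.16 ± 0.36 SE, FDR 0.0836 by edgeR). Mxd1 had 0.419 to 0.635 CPM with trametinib and 0.709 to 1.53 CPM in control tumors (FDR 0.188). Mxi1 overlapped between all groups at 76.8 to 146 CPM.

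The snoRNP and nucleolar architecture genes all had negative log2 fold changes with trametinib, and 3 of the 8 fell. Nop56, a core protein of the box C/D snoRNPs that guide methylation of ribosomal RNA, had the smallest FDR of the set. Its level was 186, 169 and 200.3 CPM in control tumors, 112, 116 and 106 CPM with trametinib, 175, 179 and 170.1 CPM with cediranib, and 107, 120.1 and 111 CPM with the combination. Dkc1, the pseudouridine synthase of the box H/ACA snoRNPs and the gene of dyskeratosis congenita, stood at 36.9, 40.2 and 47.2 CPM in control tumors, 21.2, 23.98 and 20.8 CPM with trametinib, 46.8, 39.6 and 37.6 CPM with cediranib, and 26.1, 23.5 and 18.3 CPM with the combination. Nolc1, a chaperone that carries snoRNPs through the nucleolus, had 39.4, 45.9 and 47.3 CPM in control tumors, 23.9, 28.0 and 26.4 CPM with trametinib, 48.5, 44.9 and 44.9 CPM with cediranib, and 27.7, 26.9 and 20.9 CPM with the combination. For each of these 3 genes the 6 tumors with trametinib lay below the 6 without it. The log2 fold changes against control were -0.73 ± 0.10 (SE, FDR 0.00136 by edgeR) for Nop56 (chromosome 2, 130274430 to 130279313), -0.91 ± 0.16 (0.00582) for Dkc1 (chromosome X, 75095854 to 75109777) and -0.76 ± 0.14 (0.00701) for Nolc1 (chromosome 19, 46075863 to 46085528), all on the plus strand.

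Ncl, the abundant nucleolin of the dense nucleolus and a marker of the set, did not pass with trametinib alone. It had 663, 728 and 787 CPM in control tumors, 531, 598 and 549 CPM with trametinib, 792, 848 and 708 CPM with cediranib, and 470, 612 and 333 CPM with the combination. Trametinib treated tumors lay below control tumors without overlap (log2 fold change -0.38 ± 0.18 SE, FDR 0.266 by edgeR). Combination treated tumors lay below cediranib treated tumors, and that comparison passed (-0.73 ± 0.18 SE, FDR 0.0328). The call of Ncl was lost in a fit of only these groups (FDR 0.0825 by edgeR) and with the epidermal score (0.119). It was also lost without cediranib tumor 1 or 2 or combination tumor 1 or 3 (0.0671 to 0.0926). Nop58, the partner of Nop56 in the box C/D snoRNPs, followed the same order, with 191, 201 and 185 CPM in control tumors, 142, 155 and 150.03 CPM with trametinib, 203, 197 and 200 CPM with cediranib, and 108, 162 and 92.5 CPM with the combination. Its comparison with control missed the threshold (FDR 0.232), and that of combination against cediranib passed (log2 fold change -0.73 ± 0.17 SE, FDR 0.0235 by edgeR). Nop58 lost the latter call in a fit of only these groups (FDR 0.07) and with the epidermal score (0.0537). The call was also lost on leaving out any tumor other than combination tumor 2 (0.0526 to 0.0854). Npm1, whose protein forms the outer layer of the nucleolus, had 529 to 607 CPM with trametinib and 567 to 803 CPM in control tumors (FDR 0.635), and 308 to 484 CPM with the combination. Rrp9, of the U3 snoRNP, and Fbl, the methyltransferase fibrillarin, did not pass either (FDR 0.175 and 0.600).

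Among the RNA polymerase I genes, Polr1b fell to 47.1% of its control level. Polr1b, the second largest subunit of the enzyme, had 15.2, 12.6 and 14.6 CPM in control tumors, 6.90, 6.63 and 6.45 CPM with trametinib, 18.5, 12.6 and 17.9 CPM with cediranib, and 8.58, 7.81 and 8.63 CPM with the combination. The tumors with trametinib did not overlap those without it, and the log2 fold change was -1.09 ± 0.18 (SE, FDR 0.00448 by edgeR; chromosome 2, 129100995 to 129126594, plus strand). Rrn3, the initiation factor TIF-IA that recruits the enzyme to ribosomal DNA, had 33.7, 41.7 and 39.5 CPM in control tumors, 28.4, 22.6 and 29.1 CPM with trametinib, 35.7, 40.9 and 44.0 CPM with cediranib, and 26.8, 28.6 and 24.2 CPM with the combination. Its groups with and without trametinib were apart, the test against control narrowly missed (log2 fold change -0.52 ± 0.15 SE, FDR 0.0572), and that of combination against cediranib passed (-0.60 ± 0.15 SE, FDR 0.0299). The latter call was lost with library totals, without the filter, in a fit of only these groups, with the replicate block and with the epidermal score (FDR 0.0515 to 0.104 by edgeR). It was also lost on leaving out any tumor other than cediranib tumor 1 (FDR 0.0622 to 0.101). By DESeq2 Rrn3 passed against control (FDR 0.0162). The other 3 did not pass in either comparison. With trametinib, Polr1a, the largest subunit, was at -0.22 on the log2 scale (FDR 0.455), Polr1c, shared with RNA polymerase III, -0.35 (FDR 0.420), and Ubtf, which keeps ribosomal DNA open, 0.26 (FDR 0.256).

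In the small subunit processome, Wdr43 and Heatr1 fell and Utp20 and Nop14 did not pass. Wdr43, a scaffold of the early processome, had 57.5, 47.7 and 59.4 CPM in control tumors, 36.6, 27.2 and 29.4 CPM with trametinib, 53.9, 53.8 and 60.5 CPM with cediranib, and 29.7, 36.3 and 33.6 CPM with the combination. Its log2 fold change was -0.82 ± 0.15 (SE, FDR 0.00582 by edgeR; chromosome 17, 71616215 to 71659031, plus strand). Heatr1, the homolog of yeast Utp10, is a large processome protein. It had 4.94, 4.76 and 6.16 CPM in control tumors, 3.09, 1.63 and 2.76 CPM with trametinib, 5.196, 5.01 and 5.74 CPM with cediranib, and 2.22, 3.99 and 3.16 CPM with the combination. Its test passed narrowly (log2 fold change -1.07 ± 0.29 SE, FDR 0.0466) and did not pass once any of the 6 tumors was left out (FDR up to 0.153, without control tumor 3). Utp20 and Nop14 had log2 fold changes of -0.07 (FDR 0.883) and 0.01 (FDR 0.989) with trametinib, and their levels overlapped those of control tumors.

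All 10 genes of large subunit assembly had negative log2 fold changes with trametinib, from -1.04 to -0.12, and Rrs1 and Ddx21 fell. Rrs1, which brings the 5S ribosomal RNA particle to the large subunit, had 16.9, 10.7 and 19.7 CPM in control tumors, 7.54, 6.28 and 9.04 CPM with trametinib, 19.5, 14.2 and 15.5 CPM with cediranib, and 8.18, 7.72 and 8.82 CPM with the combination. Ddx21, a nucleolar RNA helicase that also binds RNA polymerase II genes, had 108, 105 and 117 CPM in control tumors, 74.0, 57.7 and 83.1 CPM with trametinib, 124, 113 and 111 CPM with cediranib, and 73.8, 79.2 and 58.5 CPM with the combination. For both genes the tumors with and without trametinib were apart. Their log2 fold changes against control were -1.04 ± 0.24 (SE, FDR 0.0221 by edgeR) for Rrs1 (chromosome 1, 9545408 to 9547455, plus strand) and -0.62 ± 0.15 (0.0308) for Ddx21 (chromosome 10, 62580251 to 62602281, minus strand). Each of these calls was lost when control tumor 3 was left out (FDR 0.0933 and 0.106). Pes1 and Bop1 form the PeBoW complex with Wdr12. Pes1 had 50.4, 44.4 and 47.7 CPM in control tumors, 32.4, 40.3 and 35.4 CPM with trametinib, 52.9, 44.7 and 44.2 CPM with cediranib, and 36.3, 33.2 and 27.8 CPM with the combination. It missed the threshold against control (log2 fold change -0.40 ± 0.14 SE, FDR 0.119) and passed in combination against cediranib (-0.54 ± 0.14 SE, FDR 0.0358). The latter call was lost with library totals, without the filter, in a fit of only these groups, with the replicate block and with the epidermal score (FDR 0.0508 to 0.083 by edgeR). It was also lost on leaving out any tumor other than combination tumor 1 (FDR 0.058 to 0.121). Bop1 and Wdr12 did not pass in either comparison (FDR 0.792 and 0.554 against control). Gnl3, the nucleostemin of stem and tumor cells, had 8.04 to 13.2 CPM with trametinib and 17.03 to 22.2 CPM in control tumors, and its log2 fold change of -0.96 had an FDR of 0.0713. Nop2, Ftsj3, Nip7 and Nop16, which modify or mature the large subunit, had FDR values of 0.169 to 0.876.

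**Figure D2:**
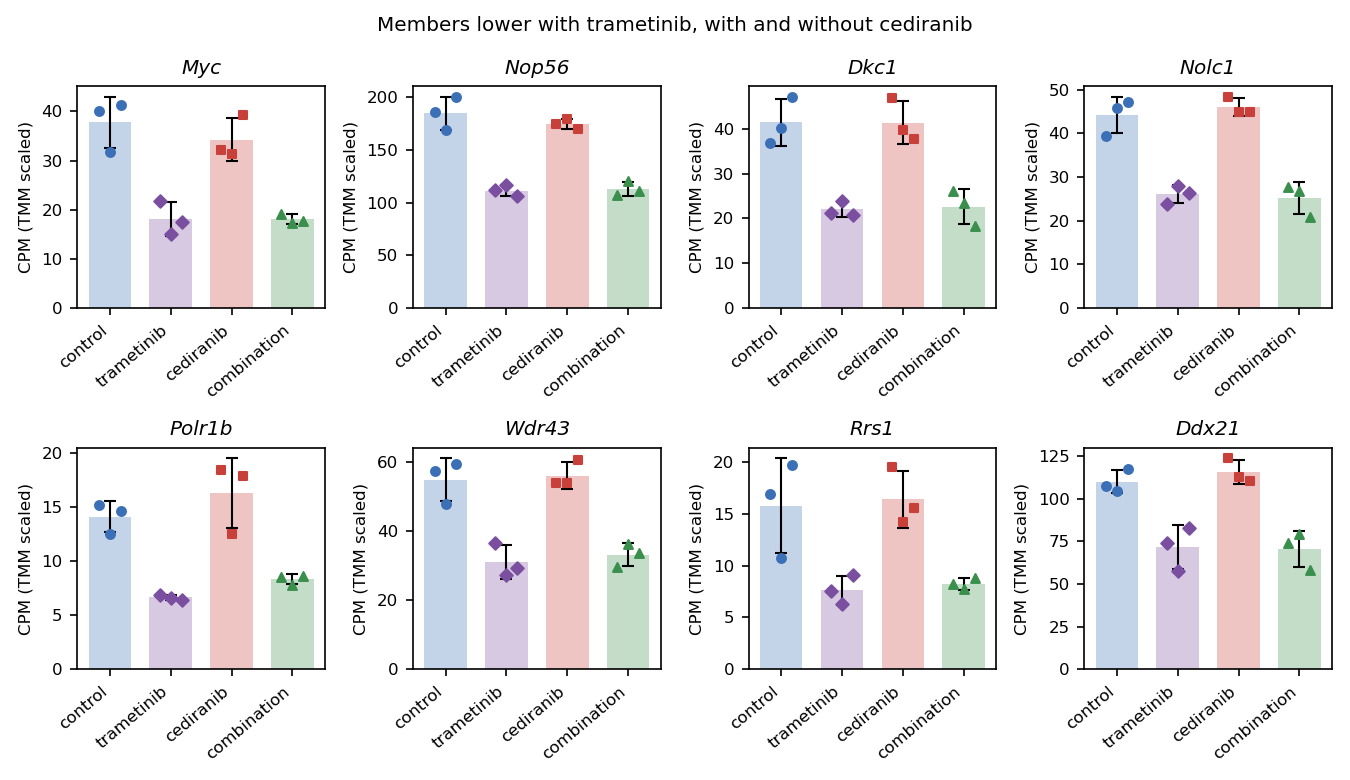
CPM of the 8 members that were lower with trametinib both against control and in combination against cediranib, each panel with its own axis from 0. Bars are means, error bars the SD of 3 tumors and points the tumors. In each panel the trametinib and combination points lie below the control and cediranib points, with Rrs1 control tumor 2, at 10.7 CPM, the nearest to them.

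The effect of trametinib was then read a second time, in combination against cediranib treated tumors. That comparison shares no tumor with the one above, but it shares the fit and its estimate of the spread. Here 12 members fell (35.3%, compared with 3.78% of all genes) and none rose (3.9% of all genes did). These were Myc, Ncl, Nop56, Nop58, Dkc1, Nolc1, Polr1b, Rrn3, Wdr43, Pes1, Rrs1 and Ddx21, with Myc at 52.6% of its level in cediranib treated tumors (log2 fold change -0.93 ± 0.17 SE, FDR 0.00869 by edgeR). In 19 members every combination treated tumor lay below every cediranib treated tumor, against 14.3% of all genes. The median log2 fold change was -0.60 over the 34 members and -0.63 over the 27 nucleolar members, 26 of which had a negative value. The 8 members lower in both comparisons were Myc, Nop56, Dkc1, Nolc1, Polr1b, Wdr43, Rrs1 and Ddx21, or all but Heatr1 of those lower with trametinib alone, and 239 of 12897 genes (1.85%) were lower in both. In 15 members neither pair of groups overlapped and trametinib was lower in both, compared with 5.68% of all genes. Across the 34 members the log2 fold changes of the 2 comparisons had a Pearson r of 0.564 (Spearman rho 0.512), and across all genes an r of 0.442. Genes are not independent replicates, and the values of all genes share the same libraries. In separate fits of only the groups compared, 6 members fell with trametinib against control and 8 in combination against cediranib. Combination tumor 3 had the lowest level of Ncl, Npm1, Nop58, Dkc1 and Nolc1 of all 12 tumors, and without it 6 members fell in place of 12 and the median was -0.43. Without cediranib tumor 1, 7 fell. The 6 were Myc, Nop56, Dkc1, Nolc1, Polr1b and Wdr43, which also passed in both comparisons under every other setting tried.

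**Figure D3:**
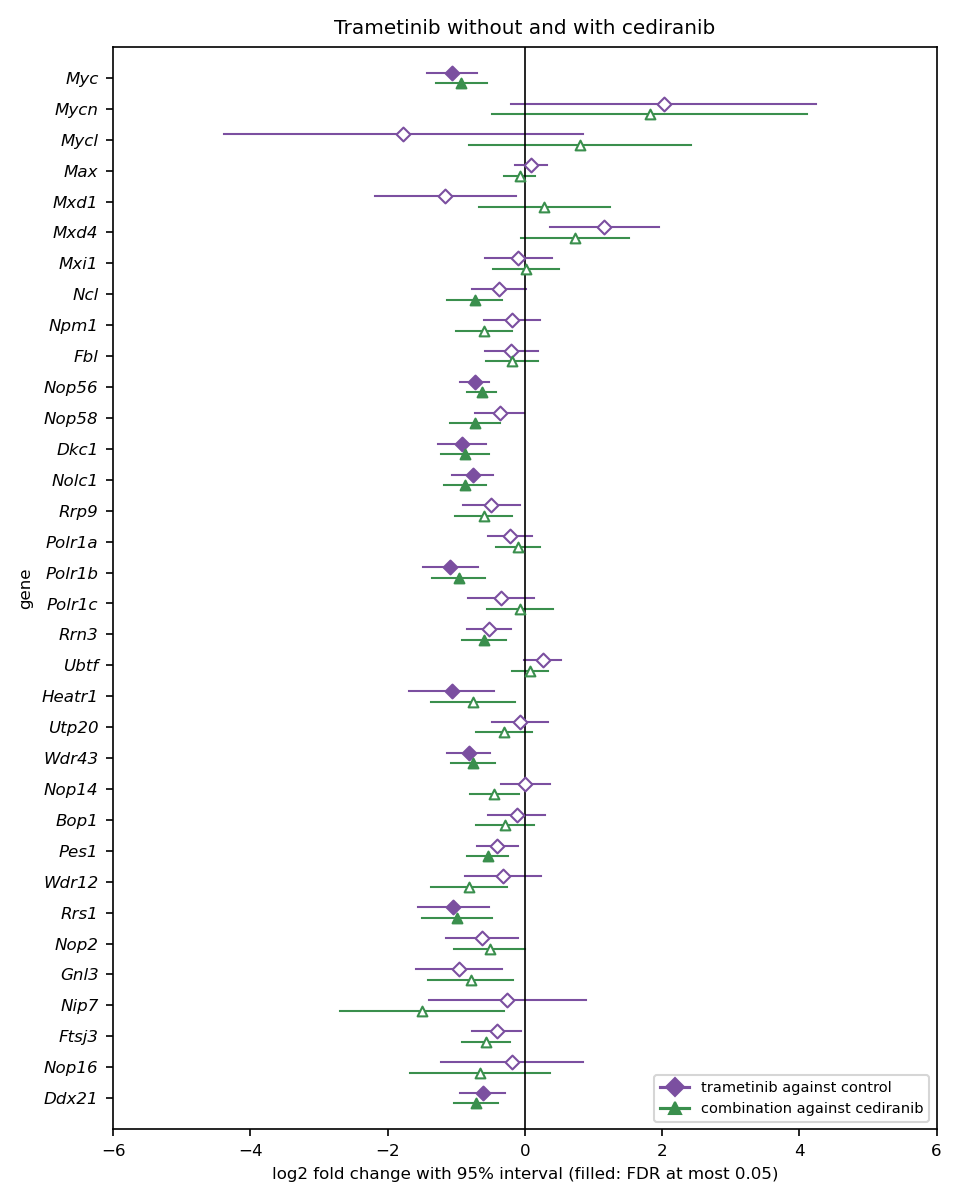
Log2 fold change (horizontal axis, with 95% interval) of each member for trametinib against control (diamonds) and combination against cediranib (triangles), with filled symbols at an FDR of at most 0.05. Myc, Nop56, Dkc1, Nolc1, Polr1b, Wdr43, Rrs1 and Ddx21 are filled in both, and the widest intervals belong to Mycn and Mycl, the members with the fewest counts.

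Whether trametinib acted differently with cediranib present was tested as an interaction. No member passed (0 of 34, and 0 of all genes tested, by edgeR), and 1 member had an unadjusted p under 0.05, compared with 909 genes (7.05%). That of Myc was 0.13 with a 95% interval of -0.38 to 0.65 (FDR 0.937). The members with the smallest p were Mxd1 (1.44, 95% interval 0.03 to 2.85, FDR 0.696) and Nop14 (-0.45, interval -0.95 to 0.05, FDR 0.726). By DESeq2, 37 genes and no member passed this test.

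No member passed in cediranib against control (FDR 0.999 for each by edgeR), nor did any of the genes tested (0%), and 1 member, Nop14, was under an unadjusted p of 0.05, compared with 557 genes (4.32%). DESeq2 called 11 genes and no member. Myc stood at 90.6% of control, with a log2 fold change of -0.14 and a 95% interval of -0.50 to 0.22. The median over the 34 members was 0.06, and 3 members (Polr1a, Nop14 and Wdr12) lay above control in every tumor, against 4.31% of all genes. Cediranib added to trametinib gave a median of -0.01 in combination against trametinib, and no member passed (0.969% of all genes did). In that comparison Myc had a log2 fold change of -0.01 with a 95% interval of -0.38 to 0.36. Of the 5 members at an unadjusted p under 0.05 (2309 genes, 17.9%), Mycl, Mxd1 and Polr1a were higher, and Npm1 and Ubtf were lower with the combination. DESeq2 called 1 member, Mycl.

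In combination against control tumors, 12 members fell (35.3%, compared with 5.13% of all genes) and none rose (4.85%). Without the filter on low counts Mycl also passed, as higher (log2 fold change 2.35, FDR 0.0444 by edgeR). The 12 were Myc, Ncl, Nop56, Nop58, Dkc1, Nolc1, Polr1b, Rrn3, Wdr43, Pes1, Rrs1 and Ddx21, and this comparison shares its combination treated tumors with the one against cediranib and its control tumors with the first. Myc stood at 47.7% of control (log2 fold change -1.07 ± 0.17 SE, FDR 0.00412 by edgeR), Nop56 at 61.0% and Dkc1 at 54.6%. In 19 members the groups did not overlap and the combination was lower, against 15.7% of all genes, and the median of the set was -0.44. Npm1 narrowly missed (log2 fold change -0.64, FDR 0.0507). It passed by DESeq2 (FDR 0.0109), and by edgeR without the filter (0.00167) or without control tumor 1 (0.0409). All 3 combination treated tumors had more epidermal marker RNA than any control tumor. With that marker level in the model, the log2 fold change of Myc was -1.25 (FDR 0.0667) and none of the 12 calls passed, while 69 genes passed in place of 1287. The 12 members had log2 fold changes of -1.25 (Myc) to -0.414 (Rrn3) in that model. With the same term, 6 members fell with trametinib against control and 8 in combination against cediranib. Without control tumor 3 or without combination tumor 3, 5 members fell in combination against control, and 6 fell without combination tumor 1.

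Of 108 further ribosome biogenesis genes tested, 8 fell with trametinib against control and none rose (7.41% lower, compared with 3.47% of all genes), and 93 had a negative log2 fold change, with a median of -0.29. In combination against cediranib 15 fell (13.9%, compared with 3.78% of all genes), none rose and the median was -0.42. Rrp12, an export factor of both ribosomal subunits, had 48.7 ± 4.96 CPM (SD, n = 3) in control tumors and 26.8 ± 1.48 CPM with trametinib (log2 fold change -0.86, FDR 0.00526). Utp4, a processome protein, had 133 ± 19.3 CPM in control tumors and 76.7 ± 10.6 CPM with trametinib (-0.80, FDR 0.0209), and it did not pass without control tumor 3 or trametinib tumor 1 or 2 (FDR 0.0578 to 0.0885). None of 12 further RNA polymerase I genes passed in trametinib against control, the nearest being Taf1d, of the SL1 promoter factor (-0.71, FDR 0.0977), and Polr1e (-0.62, FDR 0.349). Taf1d did pass there by DESeq2 (FDR 0.0437) and by edgeR without the filter (0.0348). The same held in combination against cediranib (0.0166 and 0.0146). Polr2e, a subunit common to the nuclear RNA polymerases, was in the main fit the 1 gene of this list that fell in combination against cediranib (-0.59, FDR 0.0386) and against control (-0.69, FDR 0.0171). Of 10 further genes of the MYC network none passed in trametinib against control, with Mlxip (-0.42, FDR 0.176) and Ruvbl1 (-0.36, FDR 0.323) nearest. Mlx, the partner of the MLXIP factors, was the 1 gene of this list that fell in combination against cediranib (-0.56, FDR 0.0278) and against control (-0.57, FDR 0.0217). Among 33 MYC target genes outside the nucleolus, 3 fell with trametinib against control (9.09%, compared with 3.47% of all genes), namely Eif4g1 (-0.43, FDR 0.0375), a translation initiation factor, Shmt1, of serine and folate metabolism (-1.26, FDR 0.0281), and Hk2, a hexokinase of glycolysis (-0.99, FDR 0.0195). Shmt1 did not pass without control tumor 1 or 3 or any 1 trametinib tumor (FDR 0.0556 to 0.0984), nor Hk2 without control tumor 1 or 3 or trametinib tumor 3 (FDR 0.0580 to 0.0814). In combination against cediranib 1 of the 33 fell (3.78% of all genes), Odc1, of polyamine synthesis (-0.83, FDR 0.0154).

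Among genes for proteins of the finished cytosolic ribosome, none of the 85 tested passed with trametinib against control, where their median log2 fold change was -0.13, and the nearest to the threshold were Rpl22 (-0.43, FDR 0.185) and Rps25 (-0.32, FDR 0.200). In combination against control 16 fell (18.8%, compared with 5.13% of all genes), and the median was -0.42. In combination against cediranib 5 fell (5.88%, compared with 3.78%). Rps25 had 47.1 ± 6.08 CPM in control tumors, 37.8 ± 3.88 CPM with trametinib, 42.3 ± 1.69 CPM with cediranib and 24.4 ± 2.43 CPM with the combination (SD, n = 3), and it passed in combination against control (FDR 0.00254) and against cediranib (0.00646). Many ribosomal protein genes, and Npm1 among the members, have near-identical pseudogene copies, so their counts are less certain. Of 21 ERK output genes, which report MEK activity, 15 fell with trametinib against control (71.4%, compared with 3.47% of all genes), and the median was -2.29. Egr1, an immediate early gene of the pathway, went from 87.2 ± 0.975 CPM in control tumors to 3.85 ± 1.09 CPM with trametinib and 9.32 ± 1.87 CPM with the combination. In combination against trametinib 4 of the 21 rose and none fell (0.969% of all genes passed in either direction), and the median was 0.85, whereas that of the nucleolar members was -0.01. Proliferation genes did not pass with trametinib (0 of 23, median 0.22), and Birc5 and Ccna2, of mitosis and the S phase, had log2 fold changes of 0.87 (FDR 0.148) and 0.43 (FDR 0.169).

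Averaged over the 27 nucleolar members, the log2 CPM was 4.98 to 5.17 in control tumors, 4.49 to 4.67 with trametinib, 5.10 to 5.23 with cediranib and 4.38 to 4.67 with the combination. The groups with and without trametinib did not overlap in this average. They did not overlap for the further ribosome biogenesis genes either, at 3.81 to 3.97 without trametinib and 3.43 to 3.65 with it. The mean of the ribosomal protein genes overlapped between control (7.03 to 7.48) and trametinib (6.99 to 7.29) and was lowest with the combination (6.68 to 6.89).

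**Figure D4:**
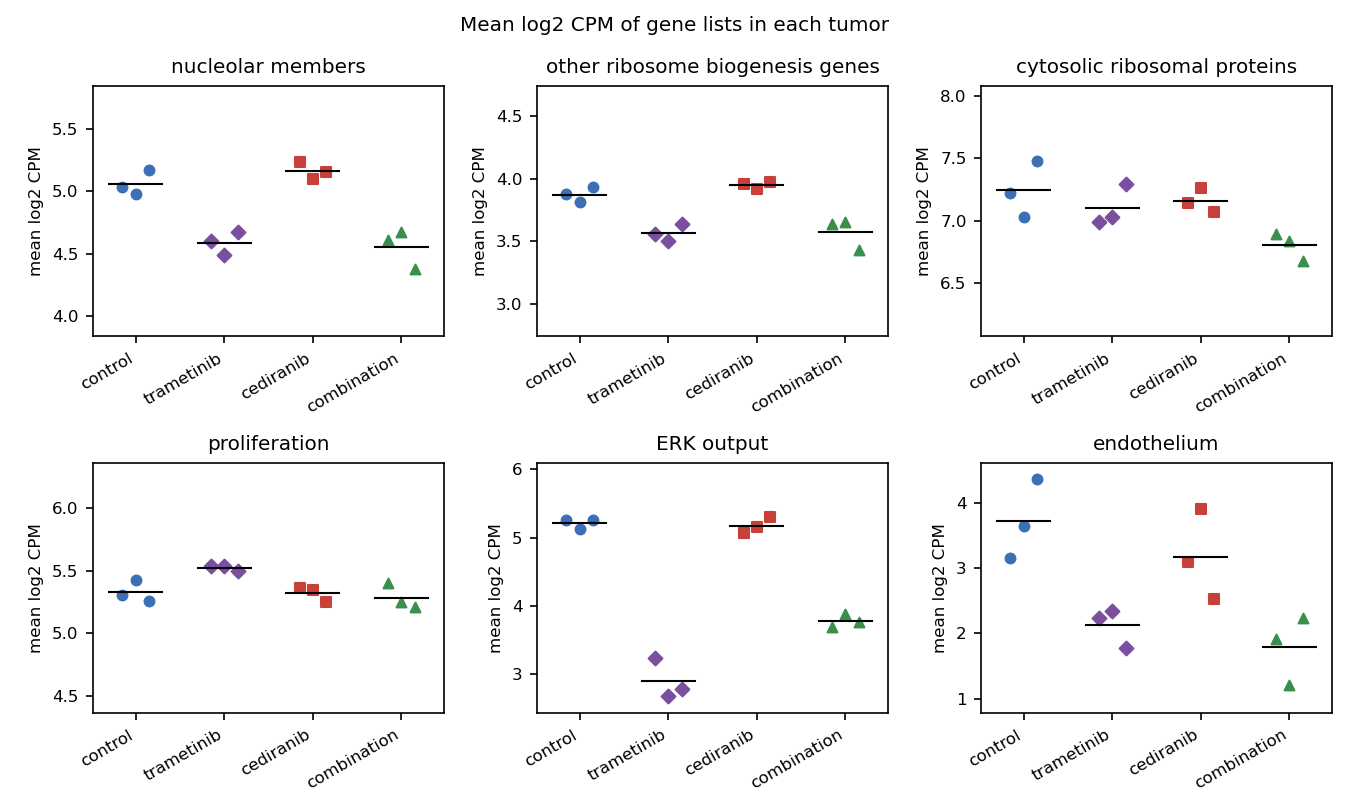
Log2 CPM, averaged over the genes tested in 6 lists, in each of the 12 tumors (points, with a line at the mean of each treatment), each panel with its own axis. The nucleolar members, the other ribosome biogenesis genes and ERK output are lower in the 6 tumors with trametinib, the ribosomal proteins are lowest with the combination, and endothelial markers range from 1.21 to 2.35 with trametinib and from 2.53 to 4.37 without it.

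Several nucleolar members share a gene structure that the choice of members did not use. Nop56, Nop58, Ncl, Gnl3, Wdr43 and Dkc1 hold 19 small nucleolar RNA genes on their own strand, as annotated in GENCODE M21 (GRCm38), and so belong to the host genes whose introns yield snoRNAs. These were 6 of 34 members, compared with 1.75% of all genes tested. Of the 6, Nop56, Dkc1 and Wdr43 fell in both trametinib comparisons, and Ncl and Nop58 fell in combination against cediranib. Gnl3 passed in neither in the main fit, but it passed in trametinib against control by DESeq2 and in both without the filter. The snoRNAs themselves were not counted apart here. In 13 members another gene lies on the opposite strand, such as Idh3b beside Nop56, Mpp1 beside Dkc1 and Lgals8 beside Heatr1, and since no source used here states whether counting used strand, reads of such pairs may not have been told apart. Myc, Nolc1, Polr1b, Rrs1 and Ddx21 have no such partner.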

How the data were processed

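Whole exome RNA sequencing of 12 SVR tumors, 3 per treatment, was analysed. The study chose exome capture because RNA of the tumors was degraded. The deposited values are raw read counts per gene without normalization, which the authors made with bcl2fastq 1.8.4, STAR 2.7.1a (GRCm38) and featureCounts 1.6.0. No source used here gives the annotation release or the strand setting. Samples were grouped by title, and 0 count columns belonged to no sample. No libraries were identical.

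Genes were filtered with filterByExpr (minimum count 10, minimum total 15), TMM scaled and fitted with the quasi-likelihood test of edgeR (4.0.16, R 4.3.3). All 12 tumors entered 1 model. The study also used edgeR. A gene passed at an FDR of at most 0.05, Benjamini-Hochberg over 12897 genes. The study's threshold adds a log2 fold change of at least 1.5. A count of 3 was taken as the limit that a count of 0 allows. This covers counting error only, since reads are not independent molecules. P-values set the difference between groups against the spread between tumors within groups, estimated jointly over all treatments. Per the methods, cells were placed in a flank of every mouse, so these tumors were read as coming from separate mice. An exact permutation of 3 against 3 tumors cannot go below 0.1, so no such test was used.

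Members and gene lists were chosen with earlier results of these data known. Tumor values are given for Myc, Mycn, Mycl, Ncl and members at an FDR of at most 0.05 in trametinib against control or combination against cediranib. From each further list, up to 2 rises and 2 falls, or the 2 genes nearest to passing, are named. Further genes, such as those in other comparisons, were chosen after their values were seen. Alternatives were DESeq2 1.42.0, library totals without TMM, no filter, only the groups compared, the replicate number as a block, an epidermal score (mean log2 CPM of epidermal markers, prior count 2) as a covariate, and each tumor left out.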

Additional observations from a re-analysis of the deposited data

How the results depend on the processing

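With 3 tumors per treatment and a biological coefficient of variation of 27.2%, small changes and members with few counts, such as Mycn, Mycl, Nip7 and Nop16, were not resolved. Myc, Nop56, Dkc1, Nolc1, Polr1b and Wdr43 passed in trametinib against control and in combination against cediranib under every alternative and without each tumor. DESeq2 called 11, 14 and 16 members in trametinib against control, combination against control and combination against cediranib, all lower. It added Rrn3 and Gnl3 in the first, Npm1 and Gnl3 in the second, and Npm1, Rrp9, Wdr12 and Ftsj3 in the third. Trametinib against control gave 6 to 8 members without each tumor. Heatr1 was lost on leaving out any 1 of the 6 tumors, Ddx21 without each control tumor and trametinib tumors 1 and 2, and Rrs1 without control tumors 1 and 3 and trametinib tumors 1 and 2. All of them were also lost in a fit of only these groups and with the epidermal score. Heatr1 and Ddx21 were lost with library totals and with the replicate block, and Heatr1 without the filter (FDR 0.0518 to 0.0974 by edgeR over these losses). Genes changed in trametinib against control, 789, came to 458 to 623 without each tumor, 1309 by DESeq2 and 1690 without the filter. In combination against cediranib, 6 to 11 members changed without each tumor, lowest without combination tumor 3 (6) and cediranib tumor 1 (7), with medians of -0.62 to -0.43. Genes changed, 991, came to 443 to 618 without each tumor, 1514 by DESeq2, 1722 without the filter and 524 with the epidermal score. In combination against control, 5 to 9 members and 517 to 1330 genes changed without each tumor, with medians of -0.575 to -0.354. Members numbered 5 with library totals alone, 7 in a fit of only these groups and 0 with the epidermal score, and genes 2390 without the filter and 69 with the epidermal score. With library totals alone the median of all genes was 0.130, 0.119 and 0.119 in combination against control, trametinib and cediranib. That of the members was -0.309, 0.112 and -0.483. In combination against trametinib, 1 member, Mycl, changed by DESeq2, without the filter and in a fit of only these groups. Genes changed, 125, came to 717, 1411 and 355 in these, 0 with the epidermal score and 0 to 22 without each tumor. Cediranib against control gave 11 genes by DESeq2, 489 without the filter and 0 to 7 without each tumor, and the interaction gave 37, 373 and 0 to 1. The log2 fold change of Myc in combination against trametinib turned sign to 0.000785 by DESeq2, 0.113 with library totals, 0.0128 without the filter and 0.00158 in a fit of only these groups, with -0.131 to 0.141 without each tumor, and its interaction to -0.0262 with the epidermal score. That of Ncl in combination against trametinib turned to 0.00332 with the epidermal score. In combination against cediranib, Ccna2 turned to 0.0235 with library totals and 0.0279 with the epidermal score and ran from -0.182 to 0.0554 without each tumor, and Birc5 ran from -0.105 to 0.288. None of these turned values passed the test. The causes were not tested.

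The replicate numbers did not pair the tumors. Deviations of same-numbered tumors correlated above 0.1 in 3 of 18 pairs (r from -0.219 to 0.356), and 9 of 36 correlated best with their own number. With the replicate block, 7, 11 and 10 members changed in trametinib against control, combination against control and combination against cediranib, 81 genes changed in combination against trametinib, and the log2 fold change of Myc there was 0.00196.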

Other observations

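Genes over the ribosomal RNA locus (Gm42418, AY036118 and CT010467.1) took 3.17% to 3.46% of all counts in control tumors, 3.00% to 4.16% with trametinib, 3.63% to 5.98% with cediranib and 2.30% to 3.07% with the combination. Exome capture is not designed to measure ribosomal RNA, so these shares are no reading of ribosomal RNA synthesis.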
